A study of Drosophila melanogaster with 2 samples.

Results

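The small heat shock protein genes Hsp22, Hsp23, Hsp26, Hsp27, Hsp67Ba, Hsp67Bc and l(2)efl of Drosophila melanogaster were examined for binding of CG34367, a homeodomain transcription factor. These 7 genes, of 13945 protein-coding genes in the annotation, were chosen by name as a gene family. Binding was mapped by ChIP-seq, in which antibody-bound chromatin is sequenced and sites of binding appear as peaks. The material was whole pupae aged 24 hours from a transgenic line that stably carries CG34367 fused at its C-terminus to GFP, and bound DNA was recovered with an anti-GFP antibody after sonication. The series holds 1 group of 2 libraries, biological replicates 1 and 2, both of this line, so no condition can be compared with another. The labels record neither the sex of the animals nor how many went into a library, and they do not say how strongly the tagged protein was made beside the natural one. A control experiment is named in them but is not analysed here.

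Small heat shock proteins are ATP-independent chaperones that share an alpha-crystallin domain and hold unfolding proteins until other chaperones refold or remove them. In flies, heat shock factor induces these genes under heat through heat shock elements, which are runs of the unit NGAAN in alternating orientation. Genes of this family are also switched on during normal development, when pulses of the steroid hormone ecdysone drive metamorphosis. Hsp22 acts in mitochondria, Hsp23 and Hsp26 in the cytosol and Hsp27 in the nucleus. Hsp67Bc works with the co-chaperone Starvin in protein clearance by autophagy, and Hsp67Ba is less well described. All but l(2)efl lie in 1 cluster on chromosome arm 3L, which spans 14184 bp from 9371511 to 9385694 on build dm6.

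4 peak lists were read: replicate 1, replicate 2, the pool of both, and the joint list of 6270 peaks that passed a threshold on the irreproducible discovery rate, a score of how well peak ranks repeat between libraries. The first 3 lists hold 30000 peaks each. All 6270 joint peaks had the same position, signal and rank in the pooled list, so they are its 6270 strongest peaks. A joint peak was thus not always found in each library: 5993 of the 6270 overlapped a peak in both. The signal of a peak is the authors' own score and is compared only within a list, apart from 1 centred ratio between libraries, and is given with its rank (1 is the strongest). A summit is the deposited highest point of a peak, and a transcription start site (TSS) is the annotated 5' end of any transcript of a gene. The lists carry no read counts, so the depth and the error of a single signal value are unknown, and the 2 libraries stand beside each other in place of an interval.

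The sequences before the TSS of 4 genes of the cluster are shown. The strongest summits of the cluster lie in the first 2 of them. By contrast, Hsp23 has its summit just past the TSS, and Hsp67Ba has no joint summit within 500 bp of its TSS. Each run gives the 300 bases before the most upstream TSS, 5' to 3' on the strand of the gene, from the RefSeq sequence of Release 6, which is dm6. Capitals mark matches, on either strand, to the 9 sequences searched, which are described further on.
Hsp27, chr3L:9383763-9384062, plus strand: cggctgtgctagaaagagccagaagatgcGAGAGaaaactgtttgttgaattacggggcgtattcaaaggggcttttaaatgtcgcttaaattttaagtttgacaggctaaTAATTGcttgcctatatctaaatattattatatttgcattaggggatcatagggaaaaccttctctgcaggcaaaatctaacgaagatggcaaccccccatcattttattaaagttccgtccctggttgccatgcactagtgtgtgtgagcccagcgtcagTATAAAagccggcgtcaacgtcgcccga
Hsp26, chr3L:9377428-9377727, minus strand: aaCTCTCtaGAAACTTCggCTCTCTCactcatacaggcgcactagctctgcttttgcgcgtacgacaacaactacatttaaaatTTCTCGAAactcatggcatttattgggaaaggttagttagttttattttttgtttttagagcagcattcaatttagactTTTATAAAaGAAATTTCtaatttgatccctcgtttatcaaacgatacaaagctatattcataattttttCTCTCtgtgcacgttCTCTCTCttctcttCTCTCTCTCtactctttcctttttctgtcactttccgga
Hsp23, chr3L:9381582-9381881, plus strand: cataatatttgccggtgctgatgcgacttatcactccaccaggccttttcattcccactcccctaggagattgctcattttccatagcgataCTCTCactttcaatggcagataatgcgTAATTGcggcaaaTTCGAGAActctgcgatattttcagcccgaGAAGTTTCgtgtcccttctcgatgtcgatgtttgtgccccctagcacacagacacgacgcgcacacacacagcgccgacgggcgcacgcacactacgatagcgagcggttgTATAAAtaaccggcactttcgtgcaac
Hsp67Ba, chr3L:9379535-9379834, minus strand: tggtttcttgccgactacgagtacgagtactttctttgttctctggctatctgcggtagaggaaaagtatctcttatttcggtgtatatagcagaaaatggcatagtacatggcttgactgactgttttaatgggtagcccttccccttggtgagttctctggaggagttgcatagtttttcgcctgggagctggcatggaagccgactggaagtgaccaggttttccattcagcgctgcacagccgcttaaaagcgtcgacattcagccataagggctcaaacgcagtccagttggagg

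The first question was which of the genes carried a peak at a start site. Hsp22, Hsp23, Hsp26 and Hsp27 each had a joint summit within 500 bp of a TSS, while Hsp67Ba, Hsp67Bc and l(2)efl had none. That is 4 of 7 genes, beside 17.4% of all protein-coding genes (2432 of 13945) and 15.2% of the 12812 genes with 1 or 2 TSS, as the members have. The genes are few, and 6 of them are neighbours, so the share was not tested. Within 250 bp the count was 3 of 7, beside 13.4% of all genes, because the Hsp22 summit lies farther out, and within 1000 bp it was 4 of 7, beside 21% of all genes. Measured from the 5'-most TSS alone it was 3 of 7 (14.9% of all genes), again without Hsp22. Among the 3135 strongest joint peaks only Hsp26 and Hsp27 were left, 2 of 7 beside 9.8% of all genes.

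Hsp27 held the strongest peak of the family by a wide margin. The joint peak (3L, 9383710 to 9384107) had its summit at 9383914, 149 bp upstream of the only annotated TSS at 9384063, in the intergenic sequence between Hsp23 and Hsp27. Its signal was 2051 and its rank 38 of 6270. In replicate 1 the summit lay 146 bp upstream with a signal of 1076 and rank 44 of 30000, and in replicate 2 it lay 149 bp upstream with a signal of 970 and rank 43. The libraries placed this peak within 3 bp of each other and at nearly the same rank. It was 1 of 31 joint peaks that ranked 50 or better in both libraries, 15 of which lay within 500 bp of a protein-coding TSS. By the strongest joint signal at a start site, Hsp27 ranked 28 among the 2432 genes with such a summit, whose median signal was 273. In the printed run the summit is base 152.

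Hsp26 came next, with the summit of its main joint peak (3L, 9377437 to 9377693) at 9377557. The gene has TSS at 9377375 and 9377427 on the minus strand, and the summit lay 130 bp upstream of the outer one, in intergenic sequence. The signal was 562 and the rank 954 in the joint list. Replicate 1 gave a signal of 284 (rank 924, summit 119 bp upstream), and replicate 2 a signal of 301 (rank 908, 141 bp upstream). The libraries again agreed closely in rank. Among genes with a joint summit at a start site, Hsp26 ranked 484 of 2432. In the printed run the summit is base 171.

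A separate joint peak stood behind it, with its summit at 9377803, 376 bp upstream of Hsp26 and 246 bp from the main summit (3L, 9377613 to 9377992). That position is the last base but 1 of the 3' UTR of Hsp67Ba, the neighbour that ends there. Its joint signal was 212 (rank 3785). In replicate 2 the same summit had a signal of 232 (rank 1416), and a further one at 9378003 had a signal of 52.0 (rank 8977). Replicate 1 had no summit there: the only peak of that library that overlapped this joint peak was the main Hsp26 peak. The second Hsp26 peak therefore rested on replicate 2.

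At Hsp22 the joint summit (3L, peak 9373356 to 9373735, summit 9373546) lay 451 bp upstream of the inner TSS at 9373997 and downstream of the outer one at 9372931. The annotation places it in the 5' UTR of the longer Hsp22 transcript, which is also the 3' UTR of CG4456, a gene on the same strand whose older symbol in RefSeq is Hsp67Bb. The joint signal was 227 (rank 3508). Replicate 1 had a signal of 91.6 (rank 4400, 493 bp upstream) and replicate 2 one of 136 (rank 2951, 451 bp upstream). The peak ranked near the middle of the joint list in signal and was found by both libraries, 42 bp apart. Weaker summits stood closer to the outer TSS, at 77 bp upstream in the pooled list (signal 37.7, rank 23971) and 44 bp upstream in replicate 1 (signal 30.9, rank 16031), neither with a q-value of at most 0.05.

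Hsp23 had the weakest joint peak of the cluster (3L, 9381729 to 9382108). Its summit at 9381919 lay 37 bp downstream of the only TSS at 9381882, in the 5' UTR. The joint signal was 150 and the rank 5677 of 6270, where the lowest joint signal was 137. Replicate 1 gave a signal of 87.9 (rank 4624, 38 bp downstream) and replicate 2 one of 51.3 (rank 9122, 45 bp downstream). The position repeated within 7 bp, but the peak was not among the 6270 strongest of replicate 2, so Hsp23 dropped out without replicate 1. In the 6270 strongest peaks of replicate 2 alone, 3 of 7 genes were left (17.1% of all genes), and in those of replicate 1 alone 4 of 7 (18.3%). Of the 2432 genes with a joint summit at a start site, 81.4% had the nearest summit upstream, as Hsp22, Hsp26 and Hsp27 did.

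The order Hsp27, Hsp26, Hsp22, Hsp23 held in the joint list and in each library. Hsp27 stood above Hsp26 by 3.78-fold in replicate 1 and 3.22-fold in replicate 2. It stood above Hsp22 by 11.7-fold and 7.13-fold, and above Hsp23 by 12.2-fold and 18.9-fold. The lower 2 places were close in replicate 1 (91.6 and 87.9) and apart in replicate 2 (136 and 51.3). With 2 libraries the order was not tested and is a description.

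**Figure D1:**
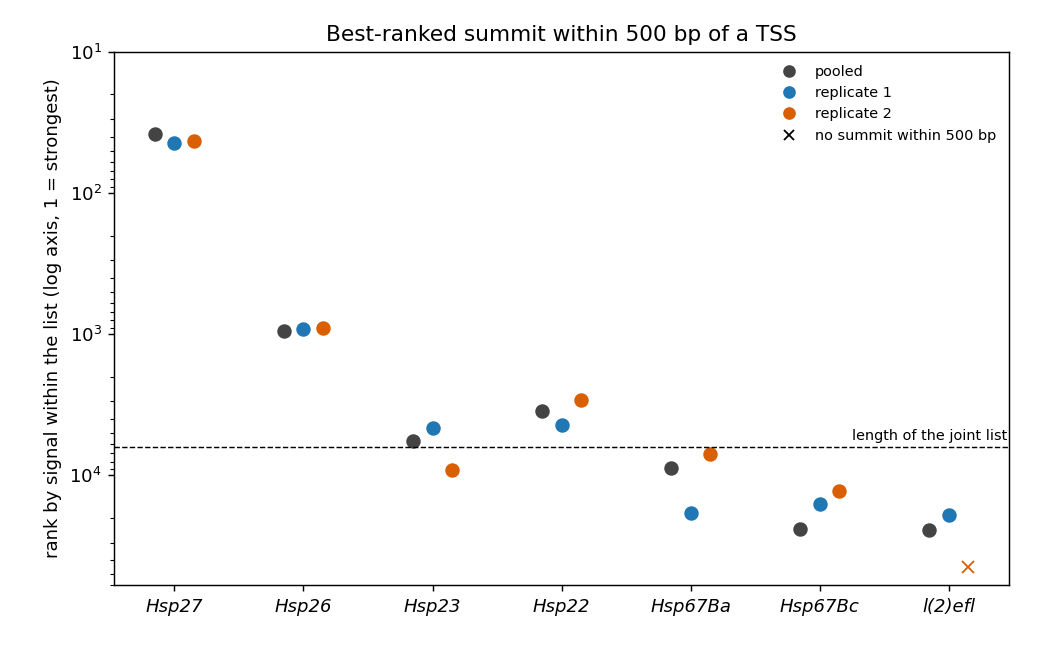
Best rank by signal (log axis, 1 is the strongest) of any summit within 500 bp of a TSS of each gene, in the pooled list and in each library; crosses mark genes with no such summit. Hsp27 sits at ranks 38 to 44 and Hsp26 at 908 to 954 in all 3 lists, whereas Hsp67Ba, Hsp67Bc and l(2)efl, and Hsp23 in replicate 2 (rank 9122), lie past the dashed line at rank 6270, the length of the joint list.

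The other 3 genes had only weak summits, and the lists differed on them. At Hsp67Ba the pooled list had summits 49 bp upstream of the TSS at 9379534 (signal 35.0, rank 25991) and 307 bp upstream (signal 98.0, rank 8920), and only the second had a q-value of at most 0.05. Replicate 2 had a summit 331 bp upstream with a signal of 65.2 (rank 7056), which passed that threshold. Replicate 1 had one 166 bp upstream with a signal of 28.2 (rank 18483), which did not. Of 30000 peaks in each library, 9154 met that threshold in replicate 1 and 18385 in replicate 2. The upstream region is overlapped by the antisense RNA gene asRNA:CR43481.

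At Hsp67Bc, whose TSS is at 9372497, the pooled list had a summit 68 bp downstream (signal 34.7, rank 26267) and one 357 bp upstream (signal 37.7, rank 23971). Replicate 2 had its summit 31 bp downstream with a signal of 36.8 (rank 12868) and a q-value below 0.05. Replicate 1 had none nearer than 390 bp upstream (signal 30.9, rank 16031). The summits upstream of Hsp67Bc are the ones described at the outer Hsp22 TSS. They lie in the 5' UTR of CG4456, which starts at 9372722 between the Hsp67Bc TSS and the outer Hsp22 TSS. A further TSS of CG4456 coincides with the outer Hsp22 TSS, and the joint summit at 9373546 lay 615 bp downstream of it.

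The gene l(2)efl, a small heat shock gene essential for viability, lies apart on 2R (23684651 to 23685543, minus strand). The nearest pooled summit lay 486 bp downstream of its TSS, inside the coding sequence, with a signal of 37.0 (rank 24495). Replicate 1 had the same summit at 488 bp (signal 27.4, rank 19277), and replicate 2 had none closer than 2187 bp. Neither summit had a q-value of at most 0.05. The gene sits inside an intron of St3, a sulfotransferase gene on the other strand, and the nearest joint summit (23687920, signal 150, rank 5666) lay in the 3' UTR of St3.

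With the full lists, which include peaks far above the q-value threshold, 7 of 7 genes had a summit within 500 bp in the pooled list and in replicate 1, and 6 of 7 in replicate 2. The background in those lists was 41.4%, 40.7% and 42.9% of genes. Counting only peaks with q no higher than 0.05, there were 5 of 7 in the pooled list (background 30.1%), 4 of 7 in replicate 1 (24.3%) and 6 of 7 in replicate 2 (36.1%). The gene gained in the pooled list was Hsp67Ba, and replicate 2 added Hsp67Bc as well.

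**Figure D2:**
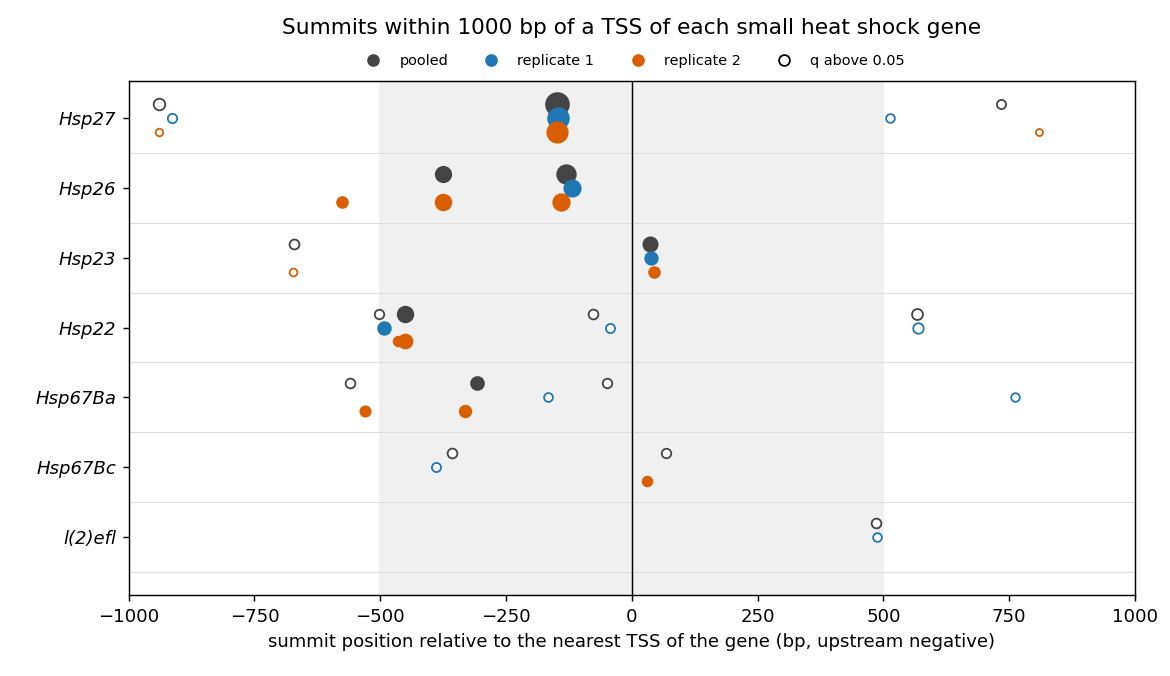
Position of every summit within 1000 bp of a TSS of each gene, in bp from the nearest TSS (upstream negative), in the pooled list and each library; marker area grows with log signal, open markers have q above 0.05 and the shaded band marks 500 bp on either side. The strongest summit lies 146 to 149 bp upstream at Hsp27, 119 to 141 bp upstream at Hsp26 and 37 to 45 bp downstream at Hsp23 in these lists, while several weaker summits, at these genes too, are in some lists and not in others.

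The second question was how densely the cluster as a whole was bound. With 2000 bp added on either side, the cluster window (3L, 9369511 to 9387694) held 5 joint summits in 18184 bp, or 2.75 per 10 kb. Of 7360 windows of that length laid end to end along the 6 arms, 59.7% held no joint summit, the mean was 0.852, and 3.08% (227 windows) held at least 5. In each library's own 6270 strongest peaks the window held 4 summits, a count reached by 5.37% of windows in replicate 1 and 6.02% in replicate 2. The cluster thus held more summits than most windows but was not at the extreme, where a single window held 13. Gene density was not matched between windows.

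**Figure D3:**
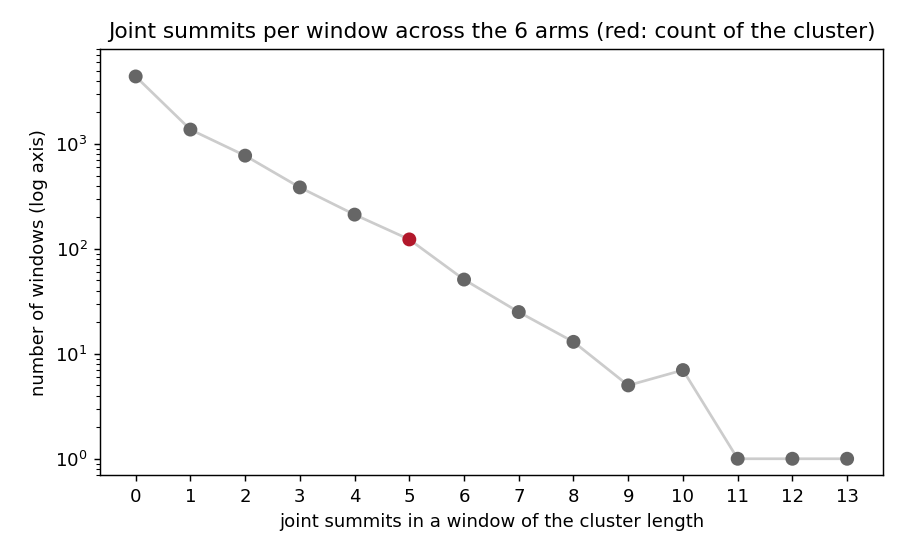
Number of windows (log axis) by their count of joint summits, for 7360 windows of 18184 bp along the 6 arms; the red point is the count of 5 found in the cluster window. The small heat shock cluster lies in the upper tail, with 227 windows at or above it.

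The 5 joint summits fell in 3 groups along the cluster. From left to right they were spaced by 4011, 246, 4116 and 1995 bp. The gap of 4011 bp holds CG4461, another gene of the alpha-crystallin family, which had no joint summit within 500 bp (the nearest lay 1884 bp upstream). The gap of 4116 bp holds most of Hsp67Ba and its antisense RNA. The pooled list had 16 summits in the window, 6 of them with a q-value of at most 0.05. Replicate 1 had 10, of which 4 passed, and replicate 2 had 14, of which 10 passed. Over the whole lists of 30000, 13029 pooled peaks, 9154 of replicate 1 and 18385 of replicate 2 passed. At least as many passing summits stood in 7.42% of windows in the pooled list, 10.2% in replicate 1 and 3.91% in replicate 2.

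Among the weaker summits of the window were ones in an intron of the ferredoxin gene Fdx1 (pooled signal 50.7, replicate 2 signal 59.9, none in replicate 1), in the coding sequence of Hsp22 (53.9 in the pool, 47.7 in replicate 1) and 940 bp upstream of Hsp27 (66.3 in the pool, 34.0 and 19.2 in the libraries). Of these, only the Fdx1 summit in replicate 2 had a q-value of at most 0.05. Past the window, a joint summit at 9367629 (signal 284, rank 2629) lay 252 bp downstream of the TSS of CG4452.

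**Figure D4:**
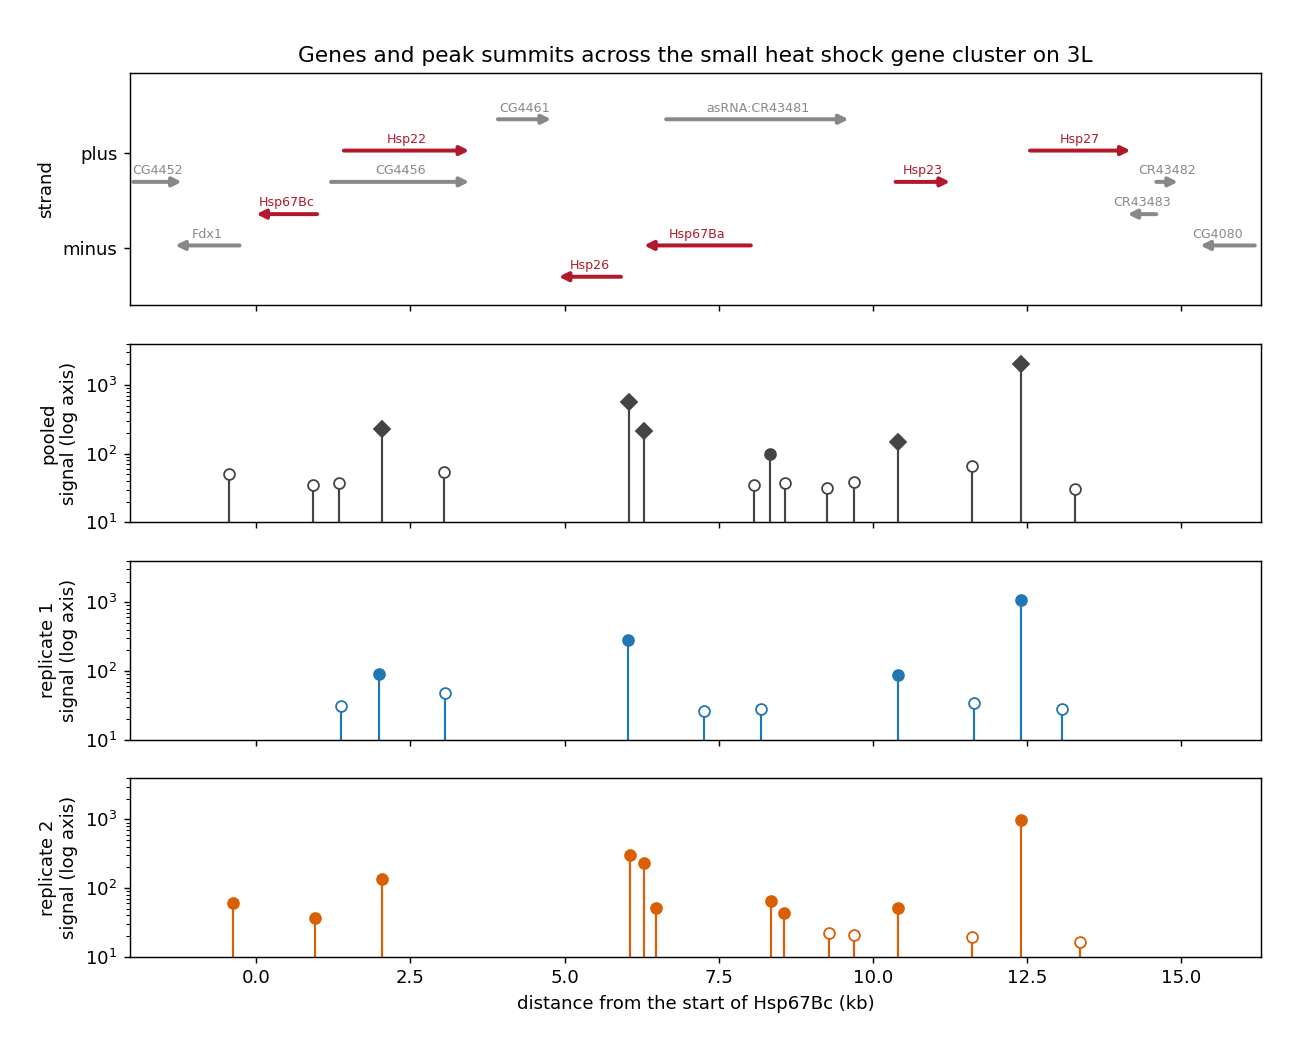
Genes of the cluster (red, small heat shock genes; arrows show direction) and the signal (log axis) of every summit in the pooled list and each library, against distance in kb from the start of Hsp67Bc. Diamonds are joint peaks and open circles have q above 0.05; the tallest summit in all 3 panels is the one upstream of Hsp27, and the summit beyond Hsp26 appears in replicate 2 and the pool but not in replicate 1.

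The third question was how alike both libraries were in height at these peaks. The log2 ratio of replicate 2 to replicate 1 was centred on its median over the 5993 joint peaks that overlapped a peak in both libraries, where its SD was 0.75. It was -0.19 at Hsp27, 0.04 at Hsp26, 0.53 at Hsp22 and -0.82 at Hsp23. The Hsp27 and Hsp26 peaks lay within 0.2 of the median, Hsp22 stood higher in replicate 2, and the ratio at Hsp23 was above that of only 9.64% of joint peaks. Only Hsp23 was more than 1 SD from the median. At the second peak upstream of Hsp26 the value was -0.34, but it sets replicate 2 against the neighbouring Hsp26 peak of replicate 1. With an overlap of at least 50% of the joint peak required, that peak had no partner in replicate 1, and Hsp22 had none in replicate 2, where the peak is only 176 bp wide.

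**Figure D5:**
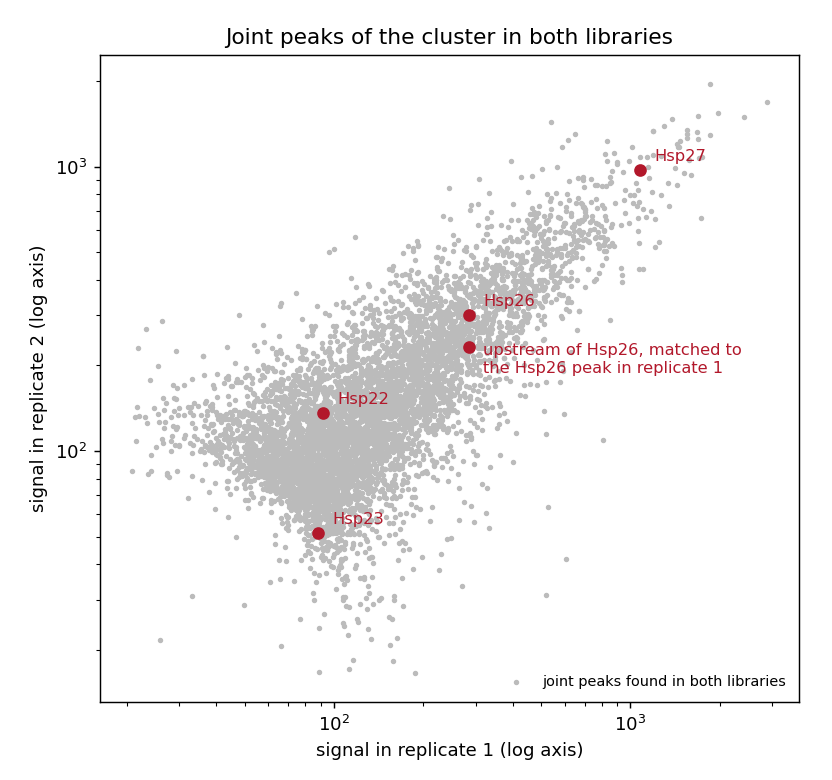
Signal in replicate 1 against replicate 2 (log axes) for 5993 joint peaks, with the 5 joint peaks of the cluster in red. Hsp27 lies at the upper end in both libraries (1076 and 970), and Hsp23 lies on the side of replicate 1 (87.9 and 51.3).

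The fourth question was which known sequences lie at these summits and starts. 9 sequences were searched on both strands: the exact heat shock element of 3 alternating units of 5 bases, its shorter forms GAANNTTC and TTCNNGAA, the ecdysone receptor core AGGTCA, the homeodomain cores TAATTA and TAATTG, the GAGA factor sequence GAGAG, the TATA box TATAAA, and the forkhead sequence TAAACA. A match is a description and not proof of a site. Within 50 bp of the summit, 3 of the 5 joint summits of the cluster held at least 1 of the 9, beside 54.8% of all joint summits. The exact heat shock element was at 0 of the 5 and at 0.112% of all.

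The Hsp27 summit had TAATTG, which 10.4% of joint summits hold, at bases 112 to 117 of its printed run, on the far side of the summit from the TSS. The Hsp26 summit had GAANNTTC at bases 173 to 180, starting 2 bases past the summit, a sequence found at 2.71% of joint summits. It also had TATAAA (21.8% of summits) in 2 overlapping matches, at bases 164 to 169 and 166 to 171. The Hsp22 summit had TAATTA, found at 9.33% of joint summits. Matches began 510, 506, 502, 498 and 465 bp before the inner Hsp22 TSS, and those at 498 and 465 bp lay within 50 bp of the summit. The match at 465 bp, the nearest to the joint summit, is shown as the 30 bases from 9373519 to 9373548 on the plus strand. Its core is in capitals and the summit is base 28.
Hsp22 site, chr3L:9373519-9373548: aaacagaaaacttTAATTAtttgttaatat

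The Hsp23 summit and the second summit upstream of Hsp26 held none of the 9 within 50 bp. Base composition differed between the summits as well. The GC content of the 101 bases around the summit was 22.8% at Hsp22, 23.8% at Hsp26, 32.7% at the second Hsp26 peak, 36.6% at Hsp27 and 38.6% at Hsp23, where the median of all joint summits was 31.7%. The highest and the lowest signal of the cluster thus had the 2 highest GC contents.

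In promoters, taken from 250 bp before to 50 bp after the most upstream TSS, the exact heat shock element was in 0 of the 7 genes and in 0.430% of all 13945. The shorter form GAANNTTC was in 4 of 7 (Hsp23, Hsp26, Hsp67Bc and l(2)efl) and in 9.40% of all, and TTCNNGAA in 2 of 7 (Hsp23 and Hsp26) and in 7.72%. TATAAA was in 6 of 7, all but Hsp67Ba, and in 45.9% of all. In those 6 genes a TATAAA began 27 or 28 bp before a TSS, which for Hsp22 and Hsp26 was the inner one. That is the usual place of a TATA box, but the share of all genes with a match there is not given here. The match that counted for Hsp22 was another one, 249 bp before its outer TSS. GAGAG was in 3 of 7 (29.8% of all), TAATTG in 2 of 7 (25.3%), TAAACA in 1 of 7 (32.6%), and TAATTA (20.5%) and AGGTCA (5.89%) in none. These counts leave out the inner Hsp22 TSS, to which the Hsp22 joint peak was assigned. There GAANNTTC lay 188 and 87 bp before the TSS, AGGTCA lay 282 bp before it, and GAGAG had several matches, the nearest starting at the TSS itself. The exact heat shock element was found once farther out, 405 bp before the TSS of Hsp23. The printed Hsp67Ba run holds no match to any of the 9. Heat shock elements with mismatched units and ecdysone response elements away from the AGGTCA core were not searched.

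The wider families gave a frame for these values. Of 4 other genes of the alpha-crystallin family, CG4461, CG7409, CG13133 and CG14207, 0 had a joint summit within 500 bp, beside 17.4% of all genes, a share at which 0 of 4 is no result about these genes. The joint summit nearest to CG14207 lay 1061 bp upstream (signal 270, rank 2809), and those nearest to CG7409 and CG13133 lay 35211 and 34957 bp away. Weak pooled summits stood 5 bp from a TSS of CG14207 (signal 32.7) and 318 bp from that of CG13133 (signal 35.9), both with q above 0.05.

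Of 27 other heat shock and chaperone genes, 7 had a joint summit at a start site (25.9%, beside 17.4% of all genes), with a median signal of 192 beside 273 over all genes with such a summit. The 5 highest were Hsc70-5, a mitochondrial Hsp70-family chaperone (signal 701, rank 624), Hsp83, the fly Hsp90 (671, rank 682), the co-chaperone genes DnaJ-H (481, rank 1245) and Droj2 (192, rank 4241), and Gp93, the Hsp90 of the endoplasmic reticulum (178, rank 4641). All 5 lay below the Hsp27 signal of 2051, and only the first 2 lay above that of Hsp26. In replicates 1 and 2 the highest signals at their start sites were 366 and 359 at Hsc70-5, 394 and 281 at Hsp83, 225 and 246 at DnaJ-H, 130 and 66.5 at Droj2, and 84.5 and 89.0 at Gp93. Hsp68 had no joint summit within 500 bp, but the pooled list had one 134 bp upstream (signal 132, rank 6546) with q below 0.05. Replicate 2 had one 171 bp upstream (signal 57.4, rank 8088), also with q below 0.05, and replicate 1 had none within 500 bp. Hsf, which encodes heat shock factor, had a summit within 500 bp in replicate 2 only. None of the stress-induced Hsp70Aa, Hsp70Ab, Hsp70Ba, Hsp70Bb, Hsp70Bbb and Hsp70Bc genes had one in any list. These copies are near-identical, and no source read here says how reads that map to several places were treated, so an absent peak there is uncertain.

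Of 10 genes of the ecdysone response, 5 (EcR, usp, Eip74EF, Eip75B and Eip63E) had a joint summit within 500 bp of a TSS, beside 17.4% of all genes. The count was 3 of 10 within 250 bp (13.4% of all genes) and 2 of 10 from the 5'-most TSS alone (14.9%). These genes have 2 to 9 TSS each and so more chances of a hit than the small heat shock genes with 1 or 2. In whole animals a weak peak can come from strong binding in few cells or weak binding in many, and the lists cannot tell these apart.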

How the data were processed

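ChIP-seq peaks from 2 libraries of whole pupae aged 24 hours were analysed as 4 narrowPeak lists. Per the deposited text descriptions, each library's list came from its dm6 alignment plus a file that also underlies the control-normalized signal, the pooled list came from both alignments, and the thresholded joint list came from these 3. Neither caller nor aligner is named in the sources used here. Signal is the authors' score for each peak, with scaling unstated, so it was used within lists, apart from the log2 ratio of the libraries, which was centred on its median. The authors also deposited a -log10 q-value, which reaches a ceiling in every list. Most widths are fixed (380 bp for 55.2% of joint peaks) and entered only the overlap by which libraries were matched.

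Summits were set against every TSS of the Ensembl release 115 annotation. Peaks past the end of an arm numbered 0, and all 7 members had ATG as start codon in the RefSeq sequence. Libraries were matched at joint peaks by an overlap of at least 1 bp, taking the nearest summit. Genes and lists were chosen with earlier results of these data known. Of the list genes, 2 were matched through older symbols, and Hop and CHIP were not matched. Named genes were the members, the genes of the cluster, the alpha-crystallin family and the 5 chaperone genes with the highest signal. Genes outside these were named after their values were seen. No test was run, since there is 1 group. The assignment of summits to TSS was tested on simulated data. Alternatives covered TSS distance, TSS choice, list, flank, overlap, centring and motif window. The background of genes with 1 or 2 TSS and the GC content of the top 50 peaks were added after seeing the data. Python 3.11.15, numpy 2.4.6, pandas 2.3.3 and matplotlib 3.10.9 were used.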

Additional observations from a re-analysis of the deposited data

How the results depend on the processing

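The count of 4 small heat shock genes with a joint summit at a start site was 3 within 250 bp, 4 within 1000 bp, 3 with only the 5'-most TSS (background 14.9%) and 5 in the pooled list at a q-value of at most 0.05. It fell to 2, Hsp26 and Hsp27, among the 3135 strongest joint peaks, which are by construction fewer (background 9.8%). Leaving out 1 library gave 3 to 4. The 5 joint summits of the cluster stayed 5 with no flank and became 6 with a flank of 5000 bp. Those windows differ in length, and the share of windows of the same length that reach these counts is not given here. Among the 3135 strongest peaks the 5 summits became 2, a count reached by 9.54% of windows. In the pooled list at that q-value they became 6, a count reached by 7.42% of windows. Leaving out 1 library gave 4 each time, reached by 5.37% of windows in replicate 1 alone and 6.02% in replicate 2 alone. With any q in the pooled list, 7 small heat shock genes had a summit at a start site, and 6 to 7 did in a single library. The chaperone count of 7 rose to 12 in the pooled list at that q-value (background 30.1%). With 1 library left out it was 9 of 27 in replicate 1 alone (33.3%, background 18.3%). In replicate 2 alone it was 5 of 27 (18.5%), near the background of 17.1%. The count of cluster summits with at least 1 of the 9 sequences rose from 3 to 5 with 100 bp on either side, a wider window in which 79.0% of all joint summits hold one. The median centred ratio of the cluster peaks was -0.19, and -0.15 when centred on promoter peaks. With an overlap of at least 50% it was -0.14, over the 3 peaks still matched in both libraries (Hsp26, Hsp23 and Hsp27). Unknown read depth limits the reading of all weak summits, and 2 libraries give only a rough estimate of spread per gene.
No paired analysis was possible because there is 1 group.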

Other observations

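The Hsp27 peak was GC-rich for its height. Among the 50 strongest joint peaks the median GC content around the summit was 29.2%, and 5 of them exceeded the 36.6% at Hsp27. This comparison was chosen after the values were seen.

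Replicate 2 had a further summit 530 bp upstream of Hsp67Ba (signal 44.1, rank 10722) with q below 0.05, where replicate 1 listed none between 166 bp upstream of Hsp67Ba and the start of Hsp23. Replicate 1 alone listed a summit in the coding sequence of Hsp67Ba, 762 bp past its TSS (signal 26.5, rank 20329), with q above 0.05.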
